A study of Mus musculus with 24 samples.

Results

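At passage 11, 3 libraries of wild-type (WT) mouse embryonic fibroblasts (MEFs) were compared with 9 WT libraries collected at passages 7, 8 and 9, and the genes that differed are described here beyond the interferon-stimulated ones, with the genes that fell. The members were chosen by the genotype and passage labels, and they are 12 of the 24 libraries of the series. The other 12 libraries are from *tfeb tfe3* double-knockout (DKO) MEFs, which lack the transcription factors TFEB and TFE3, and were collected at passages 8, 9, 10 and 11. MEFs of each genotype were treated with 0.1% DMSO (vehicle), with 100 nM torin1, an inhibitor of the kinase MTOR, or with 10 µM MK-8722, an activator of the kinase AMPK, and mRNA was sequenced as paired 52-bp reads. Each WT passage therefore holds 1 library per treatment, so the comparison is 1 library against 3 within each treatment. The cells labelled WT came to the study from another laboratory, and neither strain nor number of embryos behind them was given in the labels. Nothing in the labels says that the 3 libraries of passage 11 came from separate cultures, so passage number, culture and day of collection cannot be told apart, and the p-values measure only the spread between these libraries.

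MEFs are a mixed population of connective tissue cells taken from the embryo, and they are passaged each time they fill the dish. With passage, cultures of fibroblasts are known to shift in growth rate, in the collagens and other matrix proteins that they secrete, and in inflammatory and interferon signalling. Interferon-stimulated genes are switched on by STAT and IRF transcription factors that bind short elements in their promoters, and fibroblasts can turn them on without added interferon when nucleic acid sensors are engaged.

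The WT libraries held 25185165 to 31976752 estimated counts at passages 7 to 9 and 27633557 to 33332562 at passage 11, so depth overlapped between the groups. *Tfeb*, one of the genes disrupted in the DKO line, lay between 13.7 and 25 CPM (read counts scaled to a common library size) in the earlier WT libraries and between 1.35 and 2.67 in the DKO libraries, and *Tfe3*, the other, between 75.9 and 121 in the earlier WT libraries, 76.8 and 122 at WT passage 11 and 89.7 and 128 in the DKO libraries. The level of *Tfe3* RNA therefore did not separate the lines and checks no label. The *Tfeb* ranges given here cover the earlier WT and the DKO libraries, and check no label of WT passage 11. Of 14 defining fibroblast genes, 12 passed the filter on low counts and 6 of these were upregulated at passage 11, while *Lum* and *Fap* stayed below 1 CPM in every WT library. Their summed level was 6890 to 8192 CPM at passages 7 to 9 and 9621 to 10214 CPM at passage 11. Markers of other cells were mostly low, except some neural and glial, muscle and cartilage and epithelial ones. The 21 macrophage and leukocyte genes summed to 12.1 to 25.3 CPM at passages 7 to 9 and 13 to 22.4 at passage 11, and 6 of them (*Adgre1*, *Tyrobp*, *Cd163*, *C1qa*, *C1qb* and *C1qc*) were at 0 in all WT libraries. The 12 endothelial genes summed to 16.6 to 22.7 CPM early and 13.8 to 17.1 CPM at passage 11, with *Cldn5* at 0, and the 14 epithelial genes to 27.6 to 36.6 and 27.5 to 32.4 CPM. The 19 muscle and cartilage genes summed to 42.6 to 75.8 CPM early and 46.2 to 76.1 at passage 11, with *Myod1*, *Myf5* and *Ibsp* at 0, and the 17 neural and glial genes to 389 to 544 and 395 to 510.1 CPM, with *Elavl4* at 0. In bulk RNA, fewer cells of a type and less RNA per cell cannot be told apart.

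At passage 11, 772 genes were upregulated and 399 were downregulated, which is 4.97% and 2.57% of the 15522 genes tested. A gene was called when its fold change was at least 1.2 and edgeR's quasi-likelihood test gave it a Benjamini-Hochberg adjusted p under 0.05. Of the rises, 167 were among the 178 tested genes of an interferon-stimulated list, of which 0 fell. The other 605 rises are the first subject here and made up 3.94% of the 15344 genes beyond that list. They were smaller than the interferon rises: the median log2 fold change was 0.50 beyond the list against 2.42 in it, and 101 of the 605 changed by at least 2-fold against 144 of the 167. The falls were smaller still, with a median of -0.42 and 25 genes at 2-fold or more. The passage 11 library lay above all 3 earlier libraries in each of the 3 treatments for 577 of the 605 rises and below them for 366 of the 399 falls, where 10.7% and 11.1% of all tested genes did so. The count of falls was 246 without the WT MK-8722 library of passage 11 and 248 without the WT DMSO one, and 62 falls and 260 rises beyond the list passed a test against a fold change of 1.2 itself. Over all tested genes the median log2 fold change was -0.02.

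**Figure D1:**
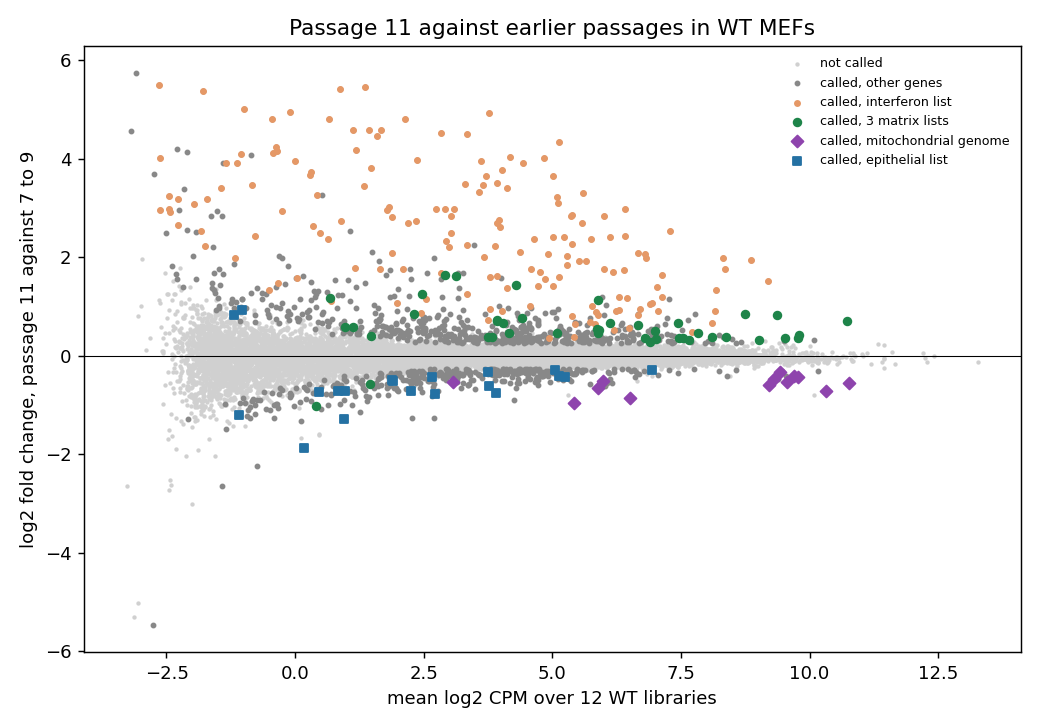
Log2 fold change of passage 11 against passages 7 to 9 (vertical axis) against mean log2 CPM over the 12 WT libraries (horizontal axis) for the 15522 genes tested, 1 point per gene. Orange points are the 167 called genes of the interferon list, green points called genes of 3 matrix lists, purple diamonds called genes of the mitochondrial genome and blue squares called genes of the epithelial list. The interferon genes reach the largest rises, the matrix genes sit mostly above 0, and the mitochondrial genes sit below it.

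The 14 largest rises beyond the list were taken by a rule for named genes. Such genes had a mean log2 CPM of at least 2 and a symbol other than a clone or model name. Their passage 11 library lay beyond the earlier ones in every treatment. Of these 14 rises, several were in genes of antigen presentation and DNA binding and others in secreted and surface proteins. *Ifi202b* (chromosome 1, 173962568-173982744, GRCm38), a member of the interferon-inducible p200 family that binds DNA, was at 7.14, 6.58, 10.9 and 31.7 CPM under DMSO, 7.70, 6.70, 11.4 and 43.2 under torin1 and 6.25, 4.47, 8.28 and 36.1 under MK-8722, at passages 7, 8, 9 and 11 in that order, which is the order used for every gene below. Its log2 fold change was 2.26 ± 0.16 (SE, 3 libraries against 9; edgeR adjusted p = 1.17e-07). All passage 11 libraries lay above all earlier ones. *AW011738* (chromosome 4, 156203304-156205151), whose product has no role given here, rose by 1.98 ± 0.16 on the log2 scale (edgeR adjusted p = 4.66e-07), from 3.44 to 8.48 CPM in the earlier libraries to between 15.4 and 21.3. Another 3, the MHC class I genes *H2-Q2*, *H2-K2* and *H2-Q1*, belong to the family that presents peptides to T cells and rose by 1.77 ± 0.13, 1.69 ± 0.09 and 1.56 ± 0.13 on the log2 scale. These genes are near-identical paralogs, so that the share of reads given to each is uncertain. Leaving out all genes of the class I and interferon gene families by symbol left 573 of the 605 rises. Of the interferon list itself, the largest rises by the same rule were *Ifi44* (4.93), *Trim30a* (4.81), *Ifit3* (4.53) and *Usp18* (4.51). *Usp18* encodes a protease that removes the ubiquitin-like protein ISG15. Over all tested genes of the interferon list, the log2 fold change reached 5.49. *Ifit3*, an RNA-binding antiviral protein, was at 1.06, 1.43, 3.03 and 46.6 CPM under DMSO, 3.43, 3.88, 9.90 and 112 under torin1 and 2.88, 2.89, 5.17 and 99.0 under MK-8722. The interferon list as a whole took 0.533% to 0.859% of the counts at passages 7 to 9 and 1.82% to 2.27% at passage 11.

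Promoter sequences are shown for 4 genes that stand for the interferon genes, a rise with no assigned role, the matrix rises and the falls, so that the letters of the interferon response element can be read beside the changes. Each runs 5′ to 3′ on the gene's strand from 250 bases before to 50 bases after the RefSeq start site (GRCm38.p6), and capitals mark each match to GAAANNGAA, the core of the interferon response element, on either strand. The windows are chr19:34583279-34583578 (plus strand) for *Ifit3*, chr4:156203034-156203333 (plus) for *AW011738*, chr1:45311288-45311587 (plus) for *Col3a1* and chr9:54661836-54662135 (minus) for *Acsbg1*.
Ifit3: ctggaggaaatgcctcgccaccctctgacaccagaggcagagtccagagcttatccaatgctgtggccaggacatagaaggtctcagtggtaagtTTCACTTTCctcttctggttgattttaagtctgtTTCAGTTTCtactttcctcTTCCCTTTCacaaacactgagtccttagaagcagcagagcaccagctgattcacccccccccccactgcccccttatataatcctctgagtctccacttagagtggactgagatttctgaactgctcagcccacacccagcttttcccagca
AW011738: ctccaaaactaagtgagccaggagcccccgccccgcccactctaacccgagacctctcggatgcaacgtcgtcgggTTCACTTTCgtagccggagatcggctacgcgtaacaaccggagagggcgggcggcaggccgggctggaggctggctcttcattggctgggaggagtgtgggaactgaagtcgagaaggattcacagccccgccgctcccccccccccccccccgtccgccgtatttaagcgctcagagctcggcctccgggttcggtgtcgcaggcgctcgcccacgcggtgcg
Col3a1: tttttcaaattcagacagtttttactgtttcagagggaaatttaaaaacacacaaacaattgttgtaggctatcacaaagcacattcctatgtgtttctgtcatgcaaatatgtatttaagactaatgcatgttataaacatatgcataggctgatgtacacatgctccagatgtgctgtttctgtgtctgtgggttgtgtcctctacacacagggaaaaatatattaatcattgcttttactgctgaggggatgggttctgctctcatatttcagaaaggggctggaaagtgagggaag
Acsbg1: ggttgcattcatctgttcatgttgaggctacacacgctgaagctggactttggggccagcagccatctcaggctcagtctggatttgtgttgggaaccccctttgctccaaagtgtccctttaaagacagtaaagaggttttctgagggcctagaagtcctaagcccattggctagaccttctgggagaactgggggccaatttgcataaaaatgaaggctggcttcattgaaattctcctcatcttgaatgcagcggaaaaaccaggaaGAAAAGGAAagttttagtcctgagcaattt
*Ifit3* held 3 matches and *AW011738*, which rose, held 1. *Acsbg1*, a gene that fell, also held 1, and *Col3a1* held 0. Among genes with a promoter in the table, the core was present in 70 of 130 interferon-list genes that rose (53.8%), in 59 of 403 rises beyond the list (14.6%), in 16 of 270 falls (5.93%) and in 902 of 10600 tested genes (8.51%), and in 9.76% of all genes in the table. The other 5 motifs were counted in the same way. TTCNNNGAA, the STAT site, was present in 11.2% of rises beyond the list, 5.93% of falls and 8.23% of tested genes. GGAATG, the TEAD site, was present in 18.9%, 17.4% and 14.4%, and TGANTCA, the AP-1 site, in 7.94%, 10.7% and 6.28%. TCACGTGA, the TFEB core, was present in 0.744%, 0.370% and 2.13%, and TTTCCCGC, an E2F site, in 0.496%, 1.11% and 2.36%. The interferon core and the STAT site can overlap in their letters, and a match describes the letters only.

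Genes of the extracellular matrix rose together. Of 100 tested genes on 3 lists of collagens, other matrix proteins and matrix proteases, inhibitors and lysyl oxidases, 41 were upregulated and 2 were downregulated, against 4.97% and 2.57% of all genes, and their median log2 fold change was 0.22 against -0.02. *Col3a1*, the chain of type III collagen (chromosome 1, 45311538-45349706), rose most among collagens and was at 17.5, 22.6, 27.0 and 57.5 CPM under DMSO, 11.4, 12.4, 17.8 and 37.9 under torin1 and 9.38, 11.4, 14.7 and 34.1 under MK-8722. All passage 11 libraries lay above all earlier ones, whatever the treatment. Its log2 fold change was 1.44 ± 0.13 (edgeR adjusted p = 2.17e-06). Of 22 collagens tested, 11 rose and 1 fell. The rises included *Col11a1* (0.84), *Col1a2* (0.83) and *Col1a1* (0.70) on the log2 scale, the last 2 being the chains of type I collagen. *Col2a1*, the cartilage collagen, was the fall (-0.58) and was low, at no more than 3.70 CPM in any WT library. The summed level of the 24 collagens in the table was 1.37 to 1.47 times that of the earlier libraries, depending on treatment.

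Of 44 other matrix proteins, 17 rose (38.6%) and 1 fell (2.27%), against 4.97% and 2.57% of all genes. Their median log2 fold change was 0.22. *Ogn*, encoding the leucine-rich proteoglycan osteoglycin (chromosome 13, 49608046-49624501), was at 7.20, 7.74, 11.4 and 24.6 CPM under DMSO, 5.80, 4.82, 8.25 and 20.7 under torin1 and 4.75, 4.47, 6.66 and 17.1 under MK-8722 (log2 fold change 1.62 ± 0.14; edgeR adjusted p = 1.47e-06). *Ccn5*, encoding a secreted matricellular protein (chromosome 2, 163820861-163833146), was at 2.31, 3.10, 5.34 and 14.3 CPM under DMSO, 10.4, 8.19, 16.2 and 30.2 under torin1 and 3.33, 3.95, 6.46 and 14.4 under MK-8722 (log2 fold change 1.64 ± 0.21; edgeR adjusted p = 9.19e-05). Both were above the earlier libraries in each treatment, and *Ccn5* had intermediate levels at passage 9 in the 3 treatments. *Has2*, the hyaluronan synthase of fibroblasts, was from 2.31 to 7.54 CPM in the 9 earlier libraries and from 6.16 to 17.3 in the 3 of passage 11 (log2 fold change 1.26 ± 0.15). *Acan*, the cartilage proteoglycan aggrecan, was the fall (-1.03) and was low, at no more than 1.94 CPM in any WT library. Outside the rule for named genes, and chosen after their values were seen, *Thbs1* (0.84), *Fbln5* (0.72), *Lama2* (0.67) and *Nid2* (0.62) also rose, encoding thrombospondin 1, fibulin 5, a laminin chain and nidogen 2. Of 34 proteases, inhibitors and crosslinking enzymes, 13 rose and 0 fell. They included *Lox* (1.13), the lysyl oxidase that crosslinks collagen, *Adamts2* (1.18), the protease that removes the amino-terminal propeptide of fibrillar procollagens, and *Adamts1* (0.77) and *Adamts5* (0.70), which cleave proteoglycans. *Lox* was at 40.1, 35.7, 49.6 and 101 CPM under DMSO, 47.6, 38.4, 54.4 and 99.2 under torin1 and 57.9, 50.8, 74.1 and 126 under MK-8722. Against passage 9 alone 31 of the 100 matrix genes rose, and 35 to 41 rose when any 1 of the 12 libraries was left out. The interferon share of the counts rose in the same 3 libraries, and its part in the matrix genes was not tested.

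**Figure D2:**
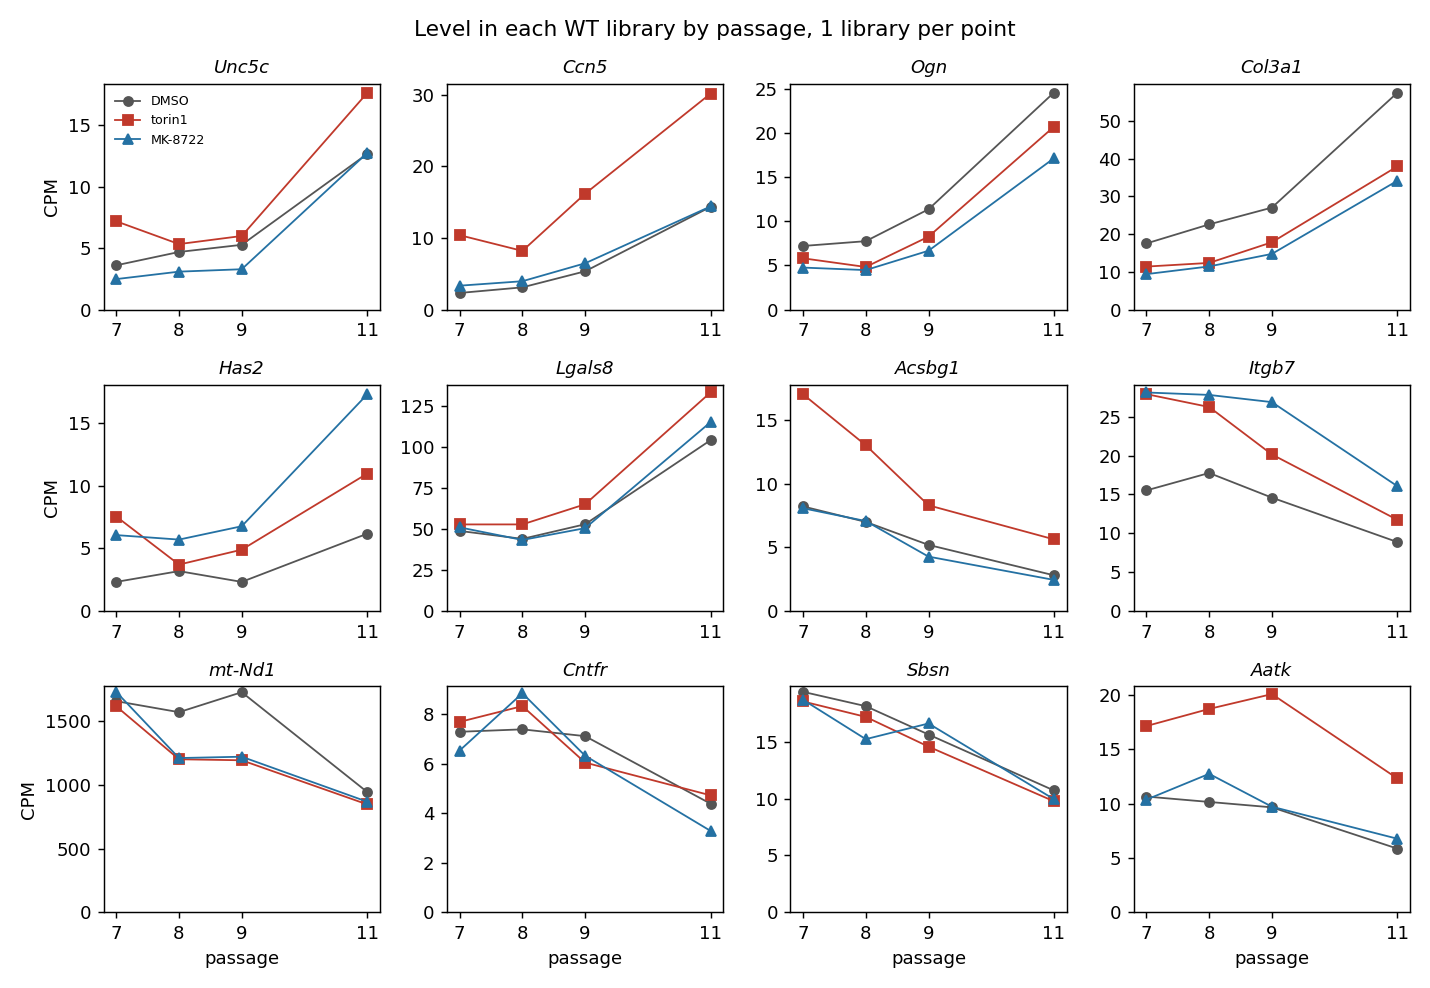
Level in CPM (vertical axis, from 0) of 12 genes in each of the 12 WT libraries by passage (horizontal axis), 1 point per library, with lines joining the libraries of 1 treatment. *Unc5c*, *Ccn5*, *Ogn*, *Col3a1*, *Has2* and *Lgals8* rise at passage 11 in all 3 treatments, and *Acsbg1*, *Itgb7*, *mt-Nd1*, *Cntfr*, *Sbsn* and *Aatk* fall in all 3.

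The other large rises were in receptors and secreted signals. *Unc5c*, a receptor for the guidance protein netrin (chromosome 3, 141465216-141834924), was at 3.60, 4.68, 5.27 and 12.7 CPM under DMSO, 7.18, 5.33, 5.99 and 17.6 under torin1 and 2.48, 3.08, 3.28 and 12.7 under MK-8722. Its log2 fold change was 1.68 ± 0.12 (edgeR adjusted p = 2.15e-07), and no passage 11 library overlapped the earlier ones of its treatment. *Ntn1*, which encodes netrin 1, rose by 0.66 on the log2 scale (chosen after its value was seen). *Lgals8*, encoding galectin 8, which binds glycans exposed on damaged endosomes, was at 48.8, 43.9, 52.8 and 104 CPM under DMSO, 52.7, 52.7, 65.0 and 133 under torin1 and 50.9, 43.2, 50.5 and 115 under MK-8722 (log2 fold change 1.2 ± 0.07; edgeR adjusted p = 1.69e-08). It had the smallest spread relative to its change among the largest rises beyond interferon family genes. *Plekha4*, encoding a phosphoinositide-binding protein, rose by 1.37. *Rspo2* (1.21) and *Rspo3* (1.58), secreted proteins that amplify Wnt signals, rose, as did *Axin2* (0.97), a target and inhibitor of the Wnt pathway, and *Dkk3* (1.27). *Rspo3* and *Dkk3* failed the rule for named genes, being low or not above the earlier libraries in every treatment. Of 42 Wnt, Notch and Hedgehog genes, 8 rose and 2 fell, against 4.97% and 2.57% of all genes (median log2 fold change 0.06). Members moved both ways there: *Jag1* rose by 0.53 and its relative *Jag2* was lower at -0.66, both being ligands of Notch receptors.

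Growth factors and their receptors were called in 15 of 50 cases upward (30%) and in 3 downward (6%), against 4.97% and 2.57% of all genes (median 0.11). The rises included *Igf1* (1.49), the growth hormone-dependent growth factor, *Angpt1* (1.26), the ligand of the TIE2 receptor, and *Osmr* (0.86), the oncostatin M receptor. *Igf1* was at 0.321, 0.310, 0.427 and 1.09 CPM under DMSO, 0.160, 0.254, 0.194 and 0.570 under torin1 and 0.0406, 0.277, 0.0331 and 0.259 under MK-8722. *Erbb3*, a receptor for neuregulins, was the largest of the 3 falls (-0.62). Of 37 genes of the TGFB, BMP and activin pathways, 7 rose (18.9%) and 1 fell (2.70%, near the share over all genes; median 0.05). The called members were mainly ligands and secreted targets, namely *Tgfb2* (0.95), *Tgfb3* (0.63), *Bmp4* (0.58) and the matrix protein *Tgfbi* (1.18), while *Smad9*, a signal transducer of BMP receptors, fell by 0.39. Of 31 contractile genes 6 rose (19.4%) and 0 fell (median 0.09), among them *Acta2* (0.84), the smooth muscle actin of myofibroblasts, *Acta1* (0.85) and *Myl9* (0.69).

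Chemokines, cytokines and complement also rose. Of 26 chemokine and cytokine genes, 9 rose (34.6%) and 0 fell, against 4.97% and 2.57% of all genes (median 0.19). *Cfb* rose most on this list, by 2.50, but was low, with a mean of 0.0709 CPM early and 0.422 at passage 11. It is counted both on this list and on the complement list below. It encodes complement factor B and is itself inducible by interferon. Also among the rises were *Ccl7* (1.2) and *Ccl2* (0.84), chemokines that attract monocytes, and *Il1rn* (0.69), the antagonist of the interleukin 1 receptor. *Ccl7* was at 2.38, 4.57, 3.17 and 8.56 CPM under DMSO, 8.98, 7.39, 8.09 and 12.7 under torin1 and 5.89, 7.67, 8.88 and 22.5 under MK-8722. The rise in *Ccl7* was 1.2 ± 0.17 on the log2 scale (edgeR adjusted p = 0.000181). A list of complement and pentraxin genes, added after the values were seen, had 9 rises (47.4%) and 1 fall (5.26%) among 19 genes tested. *C1rb* (1.03) and *C1ra* (0.88), proteases of the classical complement pathway, and *Ptx3* (0.86), a pattern recognition protein, rose, and *C4a* fell by 0.42. Only 5 of these rises were called when either the WT DMSO or the WT torin1 library of passage 11 was left out. *C1ra* and *C1rb* are close paralogs and may share reads. Other rises beyond the list, chosen after their values were seen, were *Tent5a* (2.11), *Apobec1* (1.65), *Il15* (1.62), *Casp4* (1.54), *Casp12* (1.35) and *Tnfrsf11b* (1.30). Each failed the rule for named genes, by a mean log2 CPM under 2 or a passage 11 library not above the earlier ones in every treatment. These rises are therefore less certain than the named ones. The genes encode a poly(A) polymerase, a cytidine deaminase, a cytokine of lymphocytes, a pair of inflammatory caspases and osteoprotegerin. Beyond the list means only that a gene is absent from it, and whether interferon induces these genes was not tested.

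**Figure D3:**
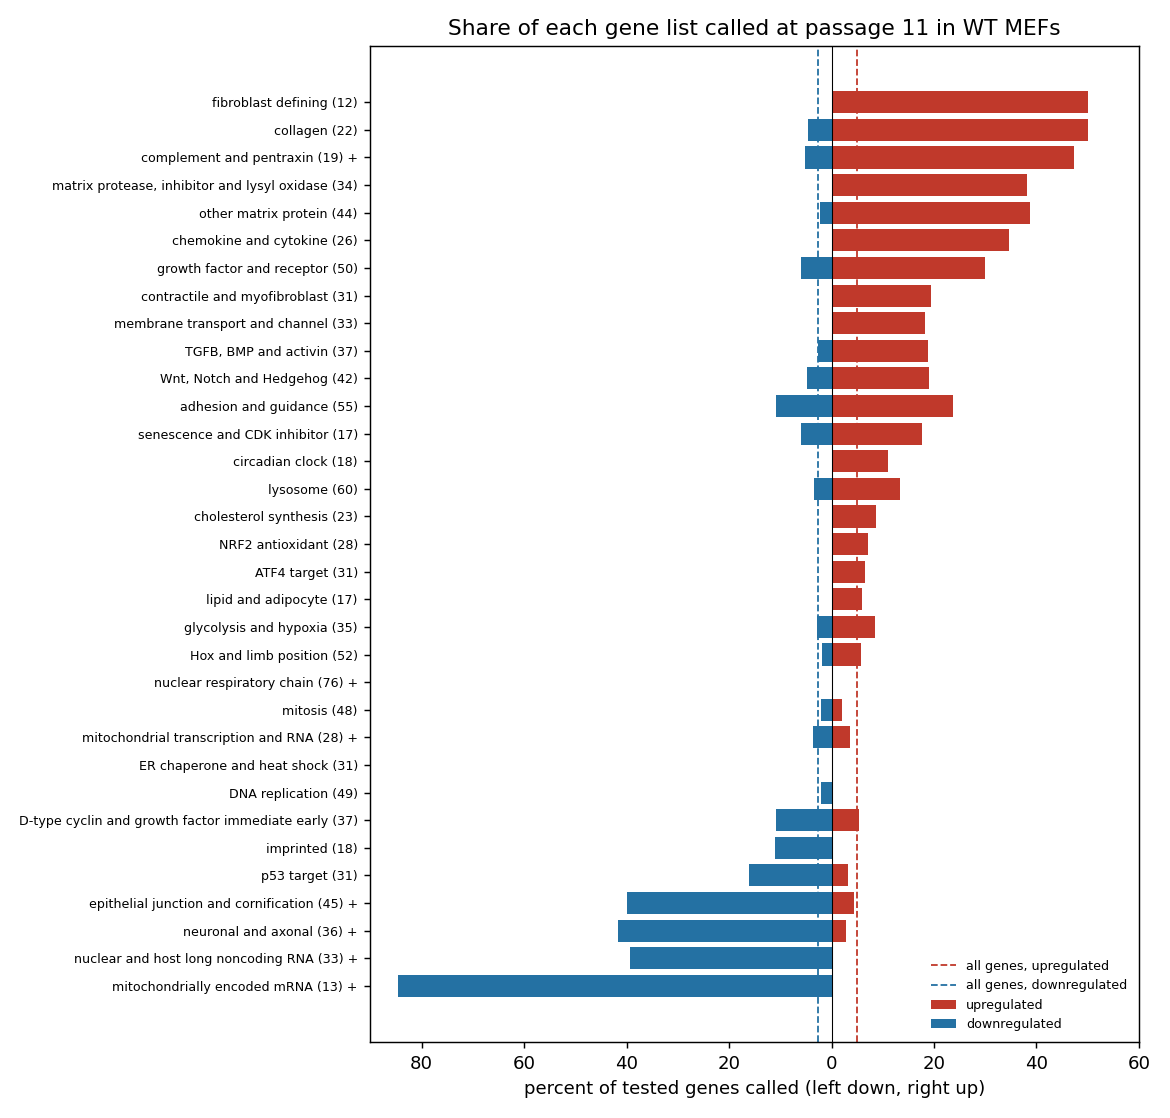
Percent of the tested genes of each list (number tested in parentheses, lists with at least 10, the interferon list left out) that were called at passage 11 in WT MEFs, with rises to the right and falls to the left of 0. Dashed lines are the shares over all tested genes, 4.97% up and 2.57% down, and a plus sign marks the lists added after values were seen. Collagens and the defining fibroblast genes, which share members, reach the largest upward share, and the mitochondrially encoded mRNAs the largest downward share.

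Among the falls, RNAs encoded by the mitochondrial genome were lowered together. Of 13 mitochondrially encoded mRNAs, on a list added after the values were seen, 11 were downregulated and 0 upregulated, against 2.57% and 4.97% of all genes. Their median log2 fold change was -0.52. *mt-Nd1*, a subunit of respiratory complex I (chromosome M, 2751-3707), was at 1656, 1569.6, 1726 and 943 CPM under DMSO, 1615, 1200.2, 1192 and 846 under torin1 and 1728, 1209.6, 1220.2 and 867 under MK-8722 (log2 fold change -0.71 ± 0.11; edgeR adjusted p = 0.000415). Each passage 11 library was below the 3 earlier ones of its treatment. *mt-Co1* (-0.26) and *mt-Atp8* (-0.52) did not pass the threshold. Both ribosomal RNAs, *mt-Rnr1* (-0.97 ± 0.17) and *mt-Rnr2* (-0.86 ± 0.19), fell. The summed mRNAs of passage 11 were at 0.634 of the earlier mean under DMSO, 0.754 under torin1 and 0.836 under MK-8722. The count rests in part on the DMSO libraries, since 7 of the 13 were called without the WT DMSO library of passage 11 and 4 without any DMSO library. Nuclear genes of the respiratory chain did not move with them, as 0 of 76 were called in either direction (median -0.01). Of 28 nuclear genes of mitochondrial transcription and RNA handling, 1 rose and 1 fell: *Pnpt1*, a polynucleotide phosphorylase that degrades mitochondrial RNA and is inducible by interferon, rose by 0.69, and *Tfb2m*, a mitochondrial transcription factor, fell by 0.27. RNAs of the mitochondrial genome have near-copies in the nuclear genome, and mRNA selection captures the ribosomal RNAs poorly, so their levels are less certain than those of nuclear genes.

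**Figure D4:**
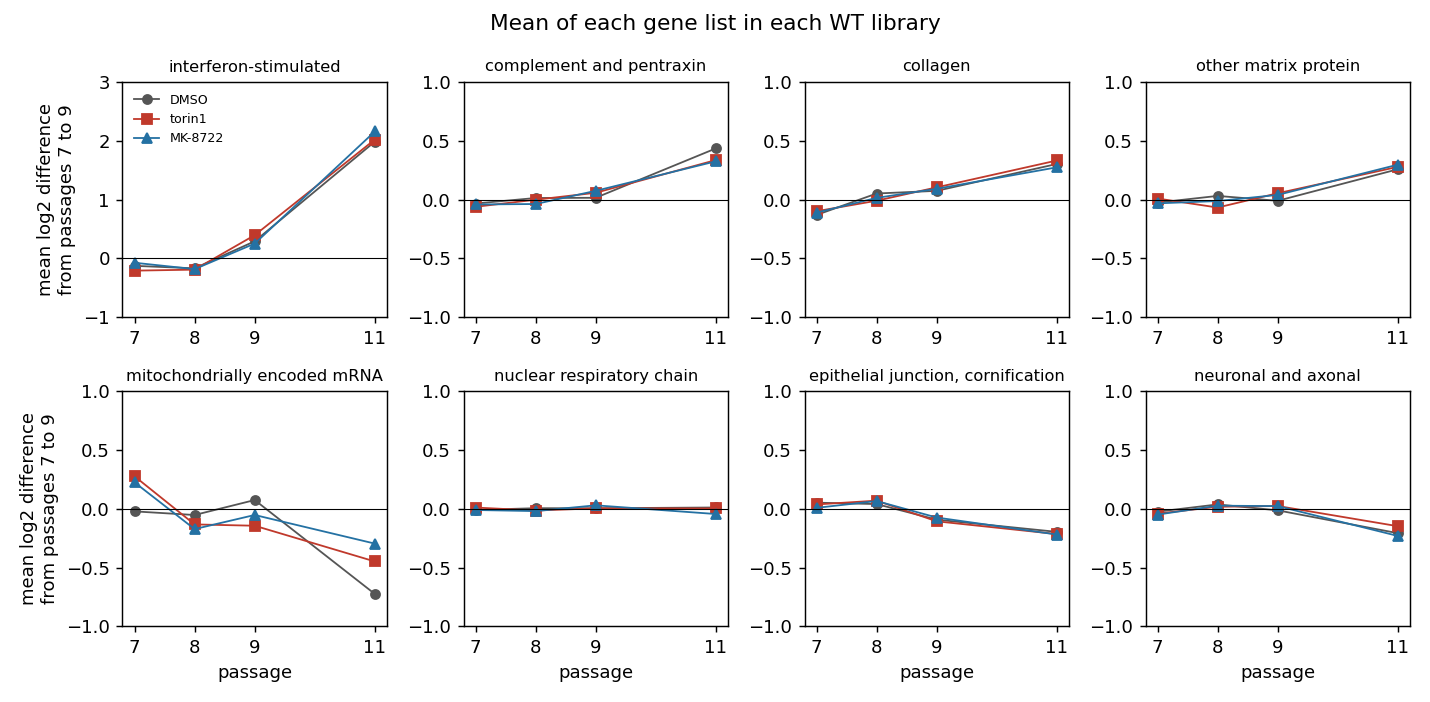
Mean log2 difference from the mean of passages 7 to 9 of the same treatment (vertical axis) for 8 gene lists by passage (horizontal axis), 1 point per WT library, with a wider axis for the interferon list. At passage 11 the interferon list lies at 1.99 to 2.16, collagens at 0.28 to 0.33, mitochondrially encoded mRNAs at -0.73 to -0.30 and nuclear respiratory chain genes at -0.04 to 0.01.

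Some genes typical of epithelium were also among the falls. On a list of epithelial junction and cornification genes, added after the values were seen, 18 of 45 tested genes fell and 2 rose. The shares over all genes were 2.57% and 4.97%. The median log2 fold change of the list was -0.28. *Sbsn*, encoding suprabasin of the upper epidermis (chromosome 7, 30751471-30756134), was at 19.4, 18.1, 15.6 and 10.7 CPM under DMSO, 18.5, 17.2, 14.6 and 9.75 under torin1 and 18.7, 15.2, 16.6 and 9.94 under MK-8722 (log2 fold change -0.75 ± 0.09; edgeR adjusted p = 3.45e-05), and every passage 11 library was below the earlier ones of its treatment. *S100a7a* (-0.77 ± 0.12), a calcium-binding protein of keratinocytes, and *Aloxe3* (-0.71 ± 0.10), a lipoxygenase of the skin barrier, also fell. The members fell in different compartments: *Epcam* (-1.20), *Lad1* (-1.28) and *Itgb4* (-0.73) serve cell and basement membrane adhesion, and *Spint1* and *Spint2* (-0.71 each) inhibit serine proteases, whereas *Krt16* (0.93), a keratin, was among the rises. *Epcam* was a low gene, between 0.214 and 0.930 CPM in the 9 earlier libraries and between 0.111 and 0.469 in the 3 of passage 11. *Lad1*, *Itgb4*, *Spint1* and *Spint2* also failed the rule for named genes, being low or not below the earlier libraries in every treatment. The count fell to 6 against passage 9 alone, to 8 without the DMSO libraries, to 9 without the WT MK-8722 library of passage 11 or without the libraries of passage 8, and to 10 without the WT DMSO library of passage 11. Of the 14 defining epithelial markers, 10 stayed below 1 CPM in every WT library, *Krt5*, *Krt14* and *Cldn3* among them, while *Krt19* reached 28.6 CPM, *Krt8* 4.45, *Tjp3* 4.43 and *Cdh1* 1.82. Of the 7 that were tested, 1 was called, and the fitted log2 fold change of all 7 was below 0 (median -0.28). A change in the cells that make up the culture was not tested.

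The largest fall by the naming rule was *Acsbg1*, an acyl-CoA synthetase for very long-chain fatty acids (chromosome 9, 54604877-54661870), which was at 8.23, 7.01, 5.20 and 2.80 CPM under DMSO, 17.1, 13, 8.32 and 5.63 under torin1 and 8.08, 7.08, 4.27 and 2.44 under MK-8722. Its log2 fold change was -1.27 ± 0.24 (edgeR adjusted p = 0.00208). The torin1 libraries held more than the others at each passage, and passage 9 was already below passages 7 and 8 in every treatment. *Itgb7*, an integrin chain best known from lymphocytes, was at 15.5, 17.8, 14.6 and 8.87 CPM under DMSO, 27.9, 26.3, 20.2 and 11.7 under torin1 and 28.1, 27.8, 26.9 and 16.1 under MK-8722 (log2 fold change -0.90 ± 0.10; edgeR adjusted p = 1.33e-05). *Coro1a*, an actin regulator of leukocytes, fell by 0.72. Of the 21 leukocyte markers, 19 stayed below 1 CPM in every WT library, and *Cd68* and *Cd14* reached 14.2 and 10.7 CPM. *Cntfr*, the ciliary neurotrophic factor receptor, was from 6.05 to 8.85 CPM in the 9 earlier libraries and from 3.29 to 4.73 in the 3 of passage 11 (log2 fold change -0.81 ± 0.13). *Aatk*, a kinase expressed in nervous tissue, and *Prodh*, the mitochondrial enzyme that starts proline breakdown, had log2 fold changes of -0.68 ± 0.08 and -0.67 ± 0.14. *Mpp3*, a scaffold protein at cell junctions, was at -0.66 ± 0.10.

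Some genes with neuronal and axonal products were also lowered. Of 36 tested on a list added after the values were seen, 15 fell and 1 rose, against 2.57% and 4.97% of all genes (median -0.25). The falls included *Prph* (-0.93), the intermediate filament peripherin, *Kif5a* (-0.69), a motor of axonal transport, and *Tubb3* (-0.55), a tubulin of neurons that cultured fibroblasts also make. *Tubb3* was between 16 and 38.8 CPM in the 9 earlier libraries and between 11.2 and 25.1 in the 3 of passage 11. *Ncam1* was the rise (0.32). With any 1 library left out 10 to 16 falls were called, and without the DMSO libraries 7. The summed level of the list at passage 11 was 0.923 of the earlier mean under DMSO, 0.988 under torin1 and 0.976 under MK-8722. On the neural and glial marker list, 1 of 8 tested genes fell and 1 rose (median -0.11). Since the added list was written with the falls in view, its count is no evidence of its own for a neuronal group.

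Long noncoding RNAs took a larger share of the falls than of the rises, 56 genes or 14% of the falls against 26 genes or 4.30% of rises beyond the interferon list, where 7.80% of tested genes were of that type. On a list of nuclear and host long noncoding RNAs, added after the values were seen, 13 of 33 fell and 0 rose (median -0.17). Over all genes the shares were 2.57% and 4.97%. In DKO MEFs the median of the noncoding list at passage 11 was -0.21 with 0 of 31 genes called, and the difference between the lines was called for 0 genes. *Mir17hg*, which carries the miR-17-92 cluster (chromosome 14, 115042879-115046727), was at 4.98, 5.81, 4.77 and 3.17 CPM under DMSO, 6.41, 4.49, 3.75 and 3.08 under torin1 and 7.15, 4.86, 5.80 and 3.36 under MK-8722 (log2 fold change -0.73 ± 0.16; edgeR adjusted p = 0.00608). *Mir155hg* (-1.49), the host of miR-155, and *Malat1* (-0.55) and *Neat1* (-0.41), RNAs of nuclear speckles and paraspeckles, fell too. *Mir155hg* failed the rule for named genes, being low or not below the earlier libraries in every treatment. The count was 6 without the WT DMSO library of passage 11, 7 without the WT MK-8722 library of passage 11, 7 without the libraries of passage 7 and 3 without the DMSO libraries. RIN values, the measure of RNA integrity in the labels, were 9.8 to 9.9 in all WT libraries.

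Genes of growth arrest and of cell division changed by different shares, against 4.97% up and 2.57% down over all genes. Of 31 targets of p53, 5 fell (16.1%) and 1 rose (median -0.07), led by *Cdkn1a* (-0.50), the CDK inhibitor p21, and *Fas* (0.41) was the rise. *Cdkn1a* was at 55.0, 43.2, 36.2 and 32.3 CPM under DMSO, 32.7, 32.1, 26.8 and 23.3 under torin1 and 59.6, 50.4, 35.2 and 30.9 under MK-8722. The 5 falls became 2 without the WT MK-8722 library of passage 11, 3 without the WT torin1 library of passage 11 or without the libraries of passage 8, and 1 against passage 9 alone. Of 17 genes of senescence, 3 rose (17.6%) and 1 fell: *Cdkn2b* (0.44) and *Igfbp7* (0.45) were among the rises and *Hmga1* was the fall at -0.31. DNA replication genes had 0 rises and 1 fall of 49, and mitosis genes 1 of each among 48, shares no higher than the background. Most of their log2 fold changes were below 0, in 36 of 49 and 40 of 48 genes. Their medians were -0.05 and -0.07, against -0.02 over all genes. Of 37 D-type cyclin and immediate early genes, 2 rose and 4 fell (10.8%), the falls being *Spry4* (-0.48), *Nr4a1* (-0.47), *Etv4* (-0.42) and *Etv5* (-0.35), of which *Spry4*, *Etv4* and *Etv5* are known targets of ERK signalling.

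Other lists varied, and their shares are read against 4.97% up and 2.57% down over all genes. Adhesion and guidance genes had 13 rises and 6 falls of 55 (23.6% and 10.9%, median 0.04), above the background in both directions, with *Cd200* (0.86) as a rise. Lysosome genes, many of them targets of TFEB, had 8 rises and 2 falls of 60 (13.3% and 3.33%, median 0.03), with *Ctso* (0.77), a cathepsin, and *Npc2* (0.73), a cholesterol transfer protein, as rises and *Gpnmb* (-0.51) as a fall. Membrane transport and channel genes had 6 rises and 0 falls of 33 (18.2% up), led by *Slc24a3* (1.22). Cholesterol synthesis genes had 2 rises of 23 with a median of 0.20, namely *Cyp51* and *Fdps*. Endoplasmic reticulum chaperone and heat shock genes had 0 calls of 31, NRF2 and ATF4 targets 2 rises each of 28 and 31, circadian clock genes 2 of 18 and lipid genes 1 of 17. Glycolysis and hypoxia genes had 3 rises and 1 fall of 35, with *Adm* (0.97), the vasodilator adrenomedullin, up and *Car9* (-0.85), a carbonic anhydrase, down. Hox and limb position genes had 3 rises and 1 fall of 52. Of 18 imprinted genes 2 fell, *Phlda2* (-0.99) and *Kcnq1ot1* (-0.45), the latter being antisense to *Kcnq1*, so that reads of the pair may not be separable. The sex-linked genes that mark the line had 0 calls of 6, and *Ddx3y* was at 0.04.

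The passages were also compared with each other. Against passage 7, passage 8 had 34 rises and 40 falls (0.219% and 0.258% of genes tested) and passage 9 had 208 and 114 (1.34% and 0.734%). Against passage 8, passage 9 had 98 rises (0.631%), 76 of them of the interferon list, and 17 falls (0.11%). Passage 11 had 974 rises and 602 falls against passage 7 (6.27% and 3.88%), 799 and 493 against passage 8 (5.15% and 3.18%) and 606 and 217 against passage 9 (3.9% and 1.4%). For the 605 rises beyond the list, the median step was 0.11 on the log2 scale between passages 8 and 9 and 0.43 between passages 9 and 11. For the falls these steps were -0.10 and -0.36, and for all genes tested 0.01 and -0.01. These genes were chosen by their level at passage 11, so that a large last step is part of the choice. *Col3a1* at passage 9 was above passages 7 and 8 under each treatment. Since 2 passages separate passage 9 from passage 11 and passage 10 holds no WT library, the course between them was not measured. In a principal component analysis of the 12 WT libraries, the component that separated passage 11 held 19.4% of the variance. When the interferon list was left out, a component with 10.5% of the variance still placed the 3 passage 11 libraries at -29.9 to -22.6 and the others at 0.0948 to 13.5.

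The change at passage 11 was also compared between treatments. In the edgeR quasi-likelihood tests of interaction, 0 of 16049 genes were called for torin1 against DMSO and 0 for MK-8722 against DMSO, with 439 and 472 genes at an unadjusted p under 0.05. Each treatment has a single passage 11 library, whose spread was taken from the earlier libraries, so that treatment differences such as that of the mitochondrial mRNAs were not resolved here.

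In the DKO line, passage 11 against passages 8, 9 and 10 gave 97 rises and 58 falls, 0.663% and 0.396% of 14631 genes tested. Of the WT rises 52 were also called as rises in DKO MEFs, which is 6.74% of the WT rises and 53.6% of the DKO rises. Of the WT falls 16 were shared, 4.01% of the WT falls and 27.6% of the DKO falls. The largest shared rises in WT MEFs were *AC147806.2*, *Oas2*, *Gm4951* and *Tgtp2*, the last 3 of interferon-inducible families. *Oas2*, which makes an activator of an antiviral nuclease, rose by 5.46 in WT and 0.69 in DKO MEFs. Of the largest changes beyond the list, *Ccl7* (DKO log2 fold change 0.63), *Itgb7* (-0.74), *S100a7a* (-0.42) and *mt-Rnr1* (-0.52) were called in both lines. The chemokine and cytokine list also rose in DKO MEFs, with 3 rises and 0 falls of 28 (median 0.13), against the DKO shares of 0.663% and 0.396%. The difference between the lines was called for 4 of 28 genes of that list, all higher in WT MEFs, against 3.04% of all genes.

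The difference between the lines was tested directly, and it was called in the direction of the WT change for 250 of the 605 rises and 88 of the 399 falls, against 3.04% and 0.903% of 15946 genes. These tests use the same WT libraries that chose the genes. *Col3a1* rose in WT MEFs and was at -0.26 in DKO MEFs, a difference of 1.71 ± 0.25 (edgeR adjusted p = 5.7e-05). Its DKO level was 11.7 to 29.0 CPM over all passages, below the 33.2 to 55.8 CPM of WT passage 11. *Ccn5* and *Lgals8* differed by 1.78 ± 0.28 (edgeR adjusted p = 0.00017) and 1.15 ± 0.11 (edgeR adjusted p = 9.81e-08). Of 87 matrix genes tested in DKO MEFs, 4 rose and 5 fell, where 0.663% and 0.396% of all genes tested in that line did so. Matrix genes were thus called above the DKO background in both directions. The difference was called higher in WT MEFs for 30 matrix genes, against 3.04% of all genes. None of the 13 mitochondrially encoded mRNAs was called in DKO MEFs (0 of 13), and the difference was called for 10 of them. *mt-Nd1* was at -0.14 in DKO MEFs, a difference of -0.57 ± 0.13 (edgeR adjusted p = 0.009). Mitochondrial RNAs took 0.785% to 0.935% of counts in the DKO libraries, 1.07% to 1.38% in the earlier WT libraries and 0.693% to 0.934% in those of passage 11. The interferon list took 1.46% to 2.31% of counts in the DKO libraries over all passages, a range that overlapped that of WT passage 11. The earlier passages of the lines were not the same (8 to 10 in DKO against 7 to 9 in WT), and line and culture cannot be told apart.

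**Figure D5:**
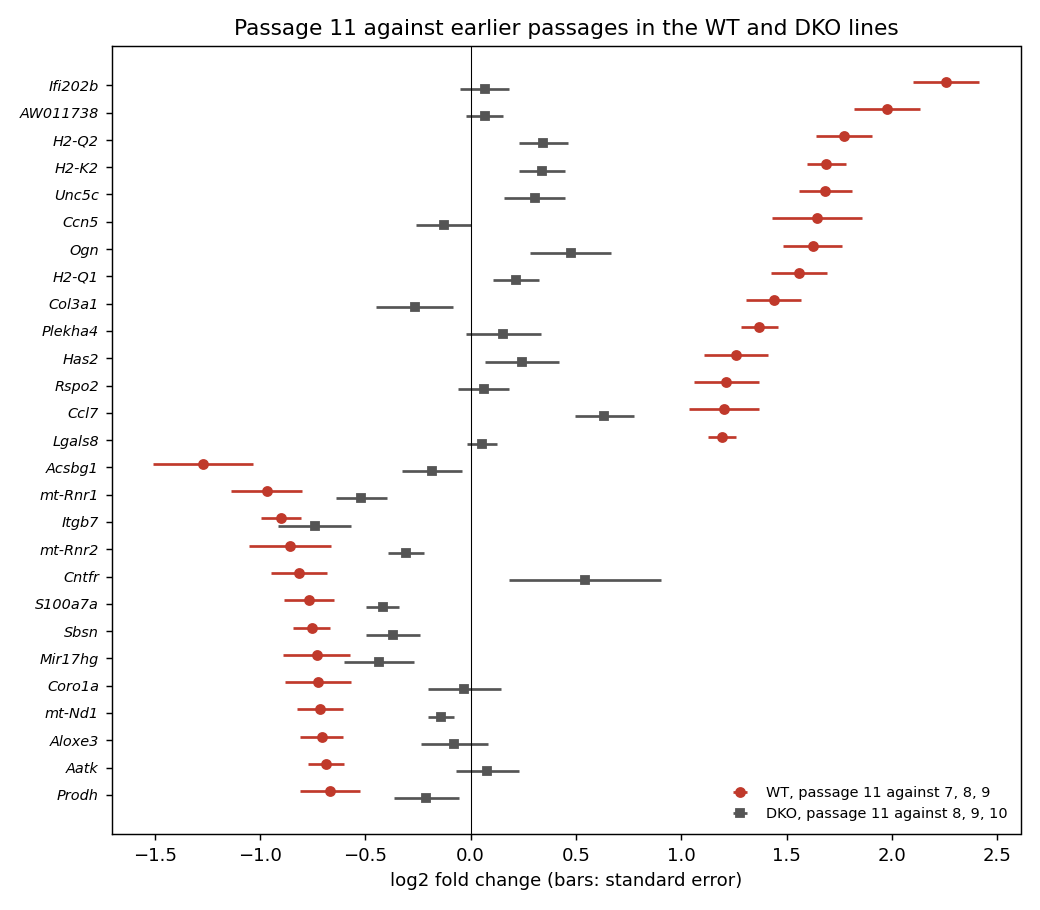
Log2 fold change of passage 11 against earlier passages (horizontal axis, bars are standard errors) in WT MEFs (red circles) and DKO MEFs (grey squares) for the named rises and falls beyond the interferon list that were tested in both lines, 1 gene per line. The WT values lie farther from 0 than the DKO values for these genes, which were chosen by their WT change.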

How the data were processed

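Bulk mRNA of WT and DKO MEFs was sequenced by the authors, and the series' gene table, in which the authors deposited estimated counts per Ensembl gene (GRCm38, Ensembl 102; STAR and salmon in an nf-core pipeline), was the only file used. The 12 WT libraries held 25185165 to 33332562 estimated counts. Counts were rounded and genes filtered with filterByExpr at a minimum count of 10. They were scaled by TMM and fitted with edgeR 4.0.16 (quasi-likelihood test, treatment and passage 11 as terms, 8 residual degrees of freedom, R 4.3.3), with calls at a Benjamini-Hochberg adjusted p under 0.05 over all genes and a fold change of at least 1.2, the thresholds of the study's methods. WT levels are CPM scaled over the 12 WT libraries, except where they stand beside DKO levels (all 24). The DKO line was fitted alone, and the difference between the lines in all 24 libraries. Gene lists and members were chosen with earlier results of these data known, and lists named as added were written after values were seen. Named genes were first the 14 largest rises and 14 largest falls off the interferon list that met the following conditions. Their mean log2 CPM reached 2, and their gene symbol was other than a clone or model name. Their passage 11 library lay beyond the earlier ones in all 3 treatments. The 4 largest interferon rises were taken by the same conditions. Up to 4 called genes per list, checks of genotype and line, and up to 4 genes shared with DKO were added. A called gene off the interferon list with a larger change than those 14 of its direction failed a condition. Tested on simulated data of 15319 genes, the fit called 98 of 100 changes of 0.5 log2 and 100 of 100 of 1 log2, and 8 of 15119 unchanged genes. The changed genes all had a mean above 4 CPM, so lower genes were not covered. Libraries were simulated independently, so the simulation held no variation shared by a passage or culture and cannot measure calls that arise from it. Promoters came from RefSeq (GRCm38.p6). Alternatives included limma 3.58.1 voom, DESeq2 1.42.0, other scalings and filters, and leaving out libraries, passages or treatments.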

Additional observations from a re-analysis of the deposited data

Results flagged for a closer look

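Among the 4 libraries of each treatment, 1 library stood far from the rest in 34 of 105 groups of a named gene and treatment, and in all 34 that library was the one of passage 11. Chance gives about 1 in 20 in groups that were not selected, but the named genes were chosen with the passage 11 library outermost in every treatment, so that neither the number nor the library is evidence of its own. The values here are the gap to the nearest other library as a share of the whole range of the group. Among genes of the interferon list the gap was largest, as *Ifi44* (0.947 under DMSO, 0.936 under torin1 and 0.966 under MK-8722), *Trim30a* (0.980 under DMSO, 0.969 under torin1 and 0.977 under MK-8722), *Ifit3* (0.957 under DMSO, 0.941 under torin1 and 0.976 under MK-8722) and *Usp18* (0.941 under DMSO, 0.883 under torin1 and 0.965 under MK-8722) showed. The genes next to them were *Ifi202b* (0.873 under torin1 and 0.879 under MK-8722), *AW011738* (0.889 under DMSO and 0.866 under MK-8722), *H2-Q2* (0.904 under torin1 and 0.855 under MK-8722), *H2-K2* (0.945 under DMSO, 0.855 under torin1 and 0.876 under MK-8722) and *H2-Q1* (0.861 under torin1 and 0.942 under MK-8722). Further rises off the interferon list were *Unc5c* (0.849 under torin1 and 0.922 under MK-8722), *Plekha4* (0.898 under DMSO and 0.907 under MK-8722), *Has2* (0.908 under MK-8722) and *Lgals8* (0.852 under DMSO, 0.847 under torin1 and 0.893 under MK-8722). Falls with such a gap were *Itgb7* (0.897 under MK-8722), *Cntfr* (0.908 under DMSO) and *Mpp3* (0.902 under torin1). The share of counts in mitochondrial RNAs also set the passage 11 library apart under DMSO (0.881), and the share in the interferon list did so under DMSO (0.906), MK-8722 (0.927) and torin1 (0.847).

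The change at passage 11 differed between the WT and DKO lines for 22 named genes, by edgeR's quasi-likelihood test of the difference over 24 libraries. The difference of log2 fold changes, WT minus DKO, was above 0 for 17 genes. Those of the interferon list and its neighbours were *Ifi202b* (2.20), *AW011738* (1.91), *H2-Q2* (1.43), *H2-K2* (1.36), *H2-Q1* (1.35), *Ifi44* (4.77), *Trim30a* (4.57), *Ifit3* (4.18) and *Usp18* (4.28). The others were *Unc5c* (1.37), *Ccn5* (1.78), *Ogn* (1.15), *Col3a1* (1.71), *Plekha4* (1.22), *Has2* (1.02), *Rspo2* (1.16) and *Lgals8* (1.15), which encode matrix and signalling proteins, receptors and a galectin. The difference was below 0 for 5 genes, *Acsbg1* (-1.08), *Cntfr* (-1.32), *mt-Nd1* (-0.57), *Aloxe3* (-0.62) and *Aatk* (-0.77). Culture was not tested apart from line in these values.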

How the results depend on the processing

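Calls of 772 rises, 399 falls and 605 rises beyond the interferon list stayed within 1.5 times of these counts under other scalings, filters and tools, DESeq2 (727, 354 and 572) and limma voom (803, 364 and 636) among them. Calls by adjusted p alone gave 1280, 1154 and 1111, and a test against a fold change of 1.2 gave 425, 62 and 260. Falls numbered 602 against passage 7 alone, 217 against passage 9 alone, 200 without the DMSO libraries and 229 without the MK-8722 libraries. With any 1 library left out, rises ranged from 627 to 836, falls from 246 to 414 and rises beyond the list from 461 to 669. In the DKO line, adjusted p alone gave 157 rises and 122 falls, and the passage 11 effect was then called lower in WT than in DKO for 246 genes. The falls thus depended on the threshold and on single libraries more than the rises did.

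Replicate numbers did not pair the libraries: deviations of same-numbered libraries correlated at -0.39 to 0.64 (median 0.07 over 12 pairs), and those of the same passage at 0.02 to 0.64 (median 0.25). With the number as a replicate block, 545 genes rose, 159 fell and 382 rose beyond the list in WT MEFs. In DKO MEFs 148 rose and 98 fell. The passage 11 effect was then called higher in WT than in DKO for 355 genes and lower for 73. Replicate 2 is the passage 11 library under both DMSO and MK-8722 in WT MEFs. The block therefore takes up part of the passage 11 difference, and a lower count with it is hard to read. Of the lists, the block left 27 matrix rises of 41, 4 falls of 11 for mitochondrial mRNAs, 7 of 18 for epithelial, 6 of 15 for neuronal and 4 of 13 for noncoding genes.

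Of 1088 values of the named genes under other settings, 1068 kept their call, 20 lost it and 0 changed direction. *Coro1a*, *Mir17hg*, *mt-Rnr2* and *Prodh* lost calls in 4 to 6 settings each. With 1 passage 11 library per treatment, the spread at passage 11 within a treatment was not measured, and changes near the fold change of 1.2 are the least certain.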
